A study of Rattus norvegicus with 93 samples.

Results

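Defects of 8 mm were compared with defects of 4 mm at days 3 and 5 after surgery, on 42 of the 93 arrays of a rat skull healing series. Members were the arrays whose titles gave day 3 or day 5. They comprised 11 arrays of 8 mm defects and 8 of 4 mm defects at day 3, and 12 of 8 mm defects and 11 of 4 mm defects at day 5. All came from male rats of 12 weeks that carried no other treatment: a round piece of the calvaria, the flat bone of the skull roof, was drilled out under saline, and the dura mater under it was left in place. Bone and healing tissue of each defect were harvested as a plug, with a trephine matched to the defect's diameter. The series names the 8 mm hole a critical-size defect and the 4 mm hole one below that size. Each sample is 1 defect of a numbered rat, and unoperated bone was not analysed here.

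A critical-size defect is one that does not close with bone in the animal's lifetime, whereas a smaller hole in the same bone fills. In the first days such a wound holds a clot, then inflammatory cells, and then granulation tissue made of fibroblasts, new capillaries and matrix, before osteoblast precursors from the dura, the periosteum and the marrow of the bone edge lay down bone. The comparison asks whether the size of the hole already shows in the RNA of the tissue at this early stage, with both days pooled so that 23 arrays of 8 mm defects stand against 19 of 4 mm defects.

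Values are log2 of the deposited ratio of a probe to about its own median over the 93 arrays. Levels of different genes therefore cannot be set against each other, and a low value does not show that a gene is absent. The lowest ratio, 0.01, is a floor at -6.64 on the log2 scale, where 10.3% of the values of these 42 arrays stood. Of 15974 genes, 8841 were above the floor on all 42 arrays. Among the bone formation genes this held for 12 of 23, with osteocalcin (Bglap), osteopontin (Spp1) and collagen I (Col1a1) among them.

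The overall level of an array, its median log2 value over probes never at the floor, ran from -2.69 to 0.42 with a median of 0.00 in 8 mm defects of day 3, against -0.20 to 0.24 with a median of -0.04 in 4 mm defects of day 3. At day 5 it ran from -0.39 to 0.69 (median 0.09) in 8 mm defects and from -0.47 to 0.62 (median 0.21) in 4 mm defects. The lowest levels of 8 mm day 3 were those of replicates 18, 20 and 13, at -2.69, -0.80 and -0.62. Replicate 13 was kept in the fits below that left out only replicates 18 and 20. The mean level differed by -0.11 between 8 and 4 mm defects, with a two-sided permutation p of 0.554 from 100000 resamples within day. A level below -0.25 was found on 6 arrays of 8 mm defects and 3 of 4 mm defects. Centring each array on its level shifted the difference of every gene by the same amount. It moved the median difference of all genes from -0.02 to 0.09, so differences below are best read against these 2 values. A list median given below with centring holds this common shift only and is no separate check.

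The values of 100 genes followed 1 common profile over the arrays, apart from a constant per gene, to within 0.02 on at least 21 of the 42 arrays and on all 42 for 24 genes. They are genes of abundant RNAs with unrelated roles, such as Actb, B2m, Apoe, Col3a1 and Rps6. Why they do so was not tested. Their differences lay between -0.50 and -0.24 with a median of -0.36. On the arrays that followed the profile nothing specific to a gene can be read. Some of the 100 left it on many arrays, as Col1a2 and C1qb, which followed it on 23 and 30. How far the differences of such genes are their own was not tested. The common profile ran from -3.30 to 0.53 in 8 mm and from -0.83 to 0.67 in 4 mm defects of day 3, and from -1.24 to -0.17 in 8 mm and from -1.26 to 0.56 in 4 mm defects of day 5. Listed genes among the 100 are named below where a list turns on them.

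**Figure D1:**
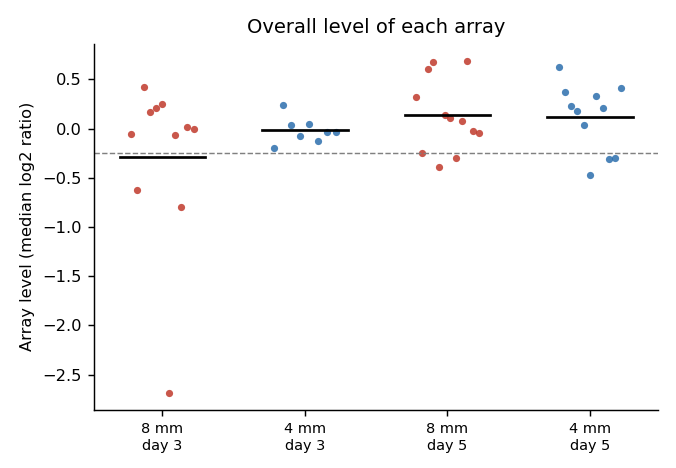
Overall level of each array (median log2 ratio over probes never at the floor) by group, 8 mm left of 4 mm at each day. Each point is 1 array, the black bar is the group mean and the dashed line marks -0.25. Replicate 18 of 8 mm day 3 lies at -2.69, below all other arrays.

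No gene passed an adjusted p of 0.05 in the pooled comparison: 0 of 15974 genes (0%) by limma, with day as a covariate. The smallest adjusted p was 0.0641. At an unadjusted p under 0.05 there were 1177 genes (7.37%), of which 624 (3.91%) had a positive difference, higher in 8 mm defects, and 553 (3.46%) a negative one. This split was 1335 positive to 561 negative with centred arrays and 622 to 1231 with quantile normalization. The days taken singly gave 0 passing genes each (0%). Of the 15974 genes, 8004 had the same sign of difference at both days, which is 50.1%. This share was 56.5% with quantile normalization and 56.2% with centred arrays.

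The precision behind the count of 0 can be stated. The median SE of a difference was 0.31 and the 95% interval reached, in the median, 0.62 either side of it. For 52.0% of all genes, and for 91.1% of those never at the floor, the interval lay within 1 log2 unit either way. Among those never at the floor, 0.679% had a difference beyond 1.

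How the arrays were scaled or weighted moved the count. Quantile normalization let 36 genes pass (0.225%), 4 with positive differences (Adipoq, Klhl25, Krt8 and Retn) and 32 with negative ones. Centring let 2 pass (0.0125%). Array weights, which let noisy arrays count less, let 27 pass (0.169%), 20 with positive and 7 with negative differences. The lowest weight, 0.0675, fell on replicate 18 of 8 mm day 3. Without the 9 arrays of low level 0 genes passed, and 1600 had an unadjusted p under 0.05, 1171 with positive and 429 with negative differences.

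**Figure D2:**
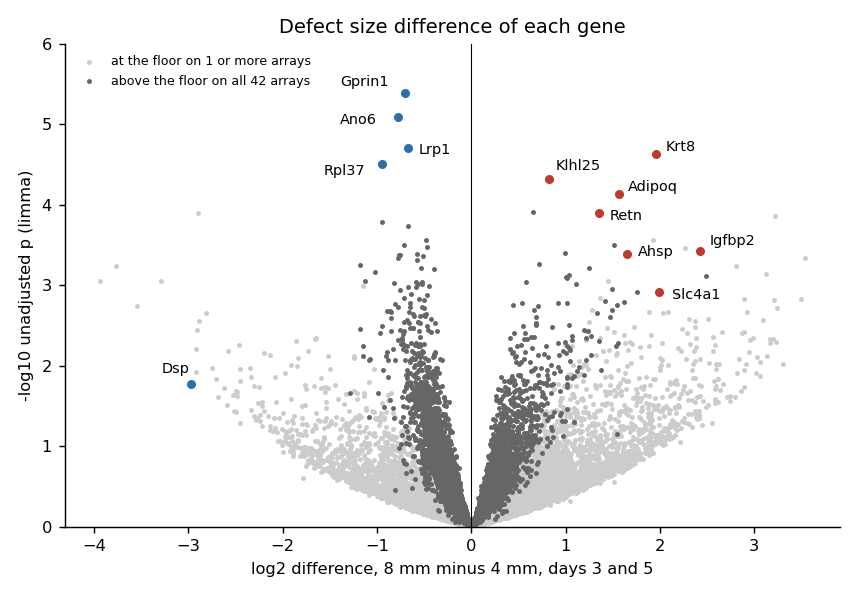
Difference of each of 15974 genes between 8 and 4 mm defects over days 3 and 5 (x axis, log2, 8 mm minus 4 mm) against its unadjusted p on a -log10 scale (y axis). Dark points are the 8841 genes never at the floor on the 42 arrays. Named genes with positive differences are red and those with negative differences blue, and none passed after adjustment.

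Genes of red cell precursors formed the list with the largest positive median. These genes serve the making of haemoglobin and of the red cell membrane, and in an adult rat they are active in marrow, which the calvaria also holds. The list had 12 entries, of which 9 were measured. All 9 differences were positive, with a median of 1.20 against -0.02 for all genes, and 7 of 9 had an unadjusted p under 0.05, against 3.91% of all genes in that direction. None of the 9 passed after adjustment. At day 3 alone 3 of 9 were under 0.05 in that direction (2.97% of all genes), and at day 5 alone 6 of 9 (3.68%).

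Ahsp, the chaperone of free alpha-globin, had log2 values from -3.22 to 1.77 (median 0.37) in 8 mm defects of day 3 and from -4.41 to 0.44 (median -2.07) in 4 mm defects of day 3. At day 5 the values ran from -3.43 to 0.78 (median -1.05) in 8 mm defects and from -4.92 to 0.42 (median -2.40) in 4 mm defects. The groups overlapped at both days, although 20 of 23 arrays of 8 mm defects lay above the mean of the 4 mm defects of their day. The pooled difference was 1.66 ± 0.43 (SE), a 3.15-fold ratio, with an adjusted p of 0.262 by limma.

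Slc4a1, the band 3 anion exchanger of the red cell membrane, had medians of 1.18 in 8 mm and -2.19 in 4 mm defects at day 3. At day 5 its medians were -1.22 in 8 mm and -3.21 in 4 mm defects. Its range at day 3 was wide on both sides, from -3.35 to 3.34 in 8 mm and from -3.91 to 3.06 in 4 mm defects. The difference was 1.996 ± 0.574 (adjusted p = 0.319, 19 of 23 arrays above the 4 mm mean).

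Epb42, a protein that ties band 3 to the membrane skeleton, differed by 1.49 ± 0.42 (adjusted p = 0.308, 21 of 23 arrays). The erythroid transcription factors Gata1 and Klf1 differed by 1.01 ± 0.28 and 1.20 ± 0.39. For Rhag, a membrane partner of the Rh proteins, the difference was 1.09 ± 0.54. The transferrin receptor Tfrc, which dividing cells of other kinds also carry, stood at the floor on 9 arrays and differed by -0.09 at day 3 and 3.65 at day 5. Only Hbb and Alas2 did not reach an unadjusted p of 0.05. Beta-globin (Hbb) differed by 0.52 (95% interval -0.08 to 1.11), and Alas2, the first enzyme of haem synthesis in red cells, by 0.51 (-0.05 to 1.08). A further beta-globin gene, Hbb-b1, was outside the list and had a difference of the other sign, -0.36. Hbb-b1 followed the common profile, so nothing specific to this gene can be read from that value.

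The list score of an array is the mean log2 value of the measured genes. For the erythroid list its median was -0.60 (range -2.53 to 1.53) in 8 mm and -1.45 (-2.50 to 1.59) in 4 mm defects of day 3. At day 5 it was -0.90 (-1.95 to 0.95) in 8 mm and -2.48 (-4.14 to -0.13) in 4 mm defects. The highest of the 4 mm arrays was replicate 13 of day 3, whose score of 1.59 lay above those of all 8 mm arrays. Leaving out single arrays kept the median difference of the list between 1.08 and 1.42. It was 1.11 with quantile normalization, where 6 of 9 members had an unadjusted p under 0.05 (3.89% of all genes), 1.31 with centring, and 1.52 without the 9 low-level arrays, where 8 of 9 members had an unadjusted p under 0.05 (7.33% of all genes). In a fit of all 14 groups of the series the median was 0.51 on day 1, 1.11 on day 7 and 0.98 on day 10. It was -0.35 for day 14 and 0.91 for day 21.

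With array weights 3 of the 9 passed after adjustment: Slc4a1 at 2.49 (adjusted p = 0.0372), Ahsp at 1.99 (0.037) and Epb42 at 1.81 (0.0404). Among the 20 genes with positive differences in that fit were 5 more that are known from red cells or reticulocytes and were picked here after their values were seen. Alox15, a lipoxygenase of reticulocytes and some white cells, had 2.98, and Slfn14, a ribonuclease of reticulocytes, 2.68. Rhd, a Rh antigen, had 2.08. The red cell enzymes Bpgm and Car2 had 1.65 and 1.62. Unweighted, these 5 differences were 2.49, 2.27, 1.62, 1.33 and 1.24 in the same order, with adjusted p from 0.262 to 0.401. In such whole-tissue samples, more cells of a type and more RNA per cell cannot be told apart.

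Other cell types of marrow had smaller medians. It was 0.21 for the neutrophil list, with 1 of 16 genes under 0.05 in the positive direction, and 0.01 for the B and plasma cell list, with 1 of 9 (3.91% of all genes). The muscle and brain lists, which mark tissue next to the defect, had medians of 0.16 and 0.24 with 0 of 21 and 0 of 15. Without the 9 low-level arrays these medians were 0.64 for neutrophils, with 3 of 16 (7.33% of all genes), 0.18 for B and plasma cells, 0.68 for muscle and 0.50 for brain.

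Promoter sequences were available for 7 of the 9 erythroid genes, and 4 are shown because they hold letters read by the erythroid factors of the same list. These letters are GATAA, a form of the site that GATA factors bind, and CCACACCC, the kind of box that Klf1 binds. Other forms of these sites were not searched for. The sequences are the 250 bases before each gene's start in RefSeq (assembly GRCr8), written on the gene's strand. The capitals mark these motifs on either strand (TTATC and GGGTGTGG are their reverse complements).
Klf1, chr19:40158652-40158901, minus strand: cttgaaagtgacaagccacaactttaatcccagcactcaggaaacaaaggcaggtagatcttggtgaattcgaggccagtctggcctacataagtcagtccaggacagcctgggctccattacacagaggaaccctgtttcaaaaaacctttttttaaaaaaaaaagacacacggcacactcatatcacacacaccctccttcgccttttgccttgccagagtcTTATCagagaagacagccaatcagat
Rhag, chr9:27594391-27594640, minus strand: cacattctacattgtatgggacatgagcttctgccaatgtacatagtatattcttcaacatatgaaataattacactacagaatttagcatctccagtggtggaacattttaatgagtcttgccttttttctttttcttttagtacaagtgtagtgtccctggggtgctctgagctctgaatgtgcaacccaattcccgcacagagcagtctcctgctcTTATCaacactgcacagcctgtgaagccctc
Alas2, chrX:22895200-22895449, plus strand: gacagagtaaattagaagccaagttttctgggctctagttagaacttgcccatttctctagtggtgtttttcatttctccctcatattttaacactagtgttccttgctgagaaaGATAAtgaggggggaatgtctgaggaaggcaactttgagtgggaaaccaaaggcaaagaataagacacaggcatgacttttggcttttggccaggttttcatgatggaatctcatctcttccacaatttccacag
Hbb, chr1:167663722-167663971, minus strand: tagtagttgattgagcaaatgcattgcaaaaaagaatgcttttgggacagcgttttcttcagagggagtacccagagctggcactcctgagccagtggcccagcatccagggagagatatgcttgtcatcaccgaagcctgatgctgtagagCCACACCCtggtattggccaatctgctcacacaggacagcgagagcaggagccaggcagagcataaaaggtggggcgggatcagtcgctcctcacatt
GATAA stood in 3 of the 7 promoters, against 23.1% of 27457 promoters of the same length, and CCACACCC in 1 of 7, against 2.84%. A match is a description of these letters and shows no binding.

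**Figure D3:**
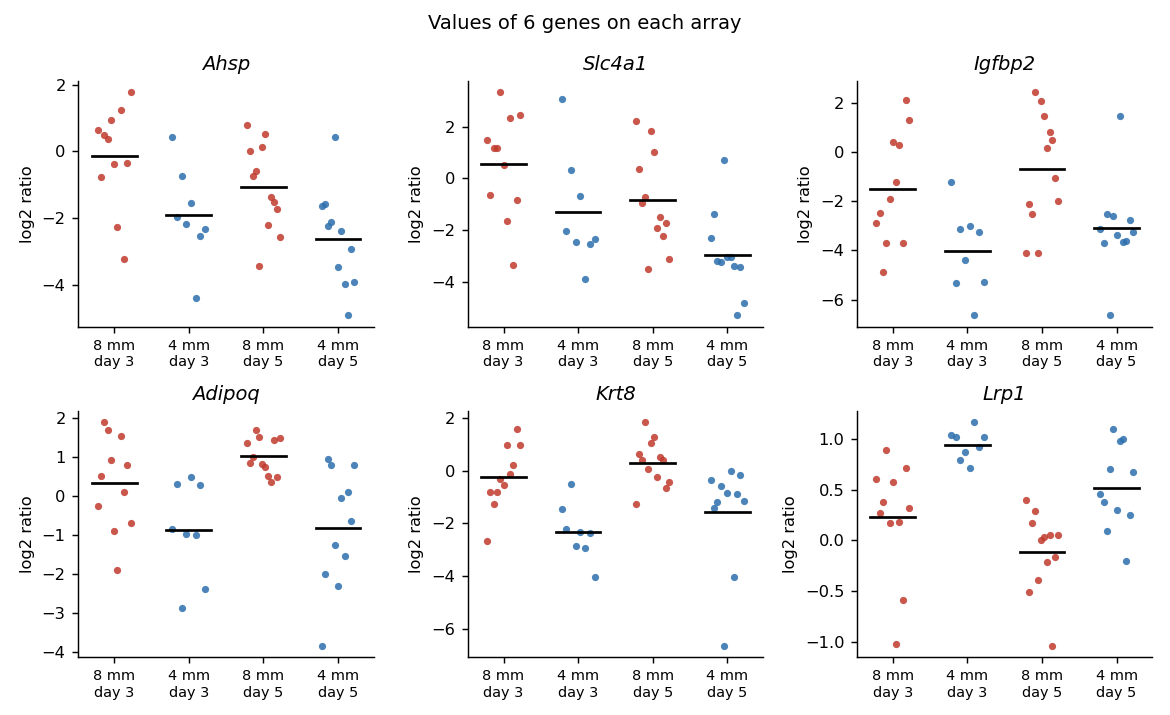
Log2 ratios of 6 genes on each of the 42 arrays by group, 8 mm left of 4 mm at each day, with the group mean as a black bar. The 8 mm means lie above the 4 mm means of the same day for Ahsp, Slc4a1, Igfbp2, Adipoq and Krt8 and below them for Lrp1, and the groups overlap in all 6 genes at both days.

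Meningeal genes, of the membranes that wrap the brain and include the dura, had the next largest median, 0.94 over 13 measured genes. In the positive direction 4 of 13 had an unadjusted p under 0.05 (3.91% of all genes) and in the negative direction 1 (3.46%); 0 passed after adjustment. Igfbp2, a binding protein of insulin-like growth factors, had medians of -1.90 in 8 mm and -3.83 in 4 mm defects at day 3. Its medians at day 5 were -0.45 in 8 mm and -3.24 in 4 mm defects. The difference was 2.43 ± 0.63, a 5.39-fold ratio (adjusted p = 0.262, 20 of 23 arrays above the 4 mm mean), and 2 arrays were at the floor. It was close in size at both days, 2.51 at day 3 and 2.37 at day 5.

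Its partner growth factor Igf2 differed by 1.20 ± 0.46, though only 13 of 23 arrays of 8 mm defects lay above the 4 mm mean. Slc6a13, a GABA transporter of the meninges, differed by 1.56 ± 0.63, and Cldn11, a tight junction protein of the arachnoid barrier, by 1.21 ± 0.54. Ptgds, the prostaglandin D synthase of the leptomeninges, differed by 1.54 ± 0.83 with an interval from -0.13 to 3.22. In all 9 of 13 differences were positive. The 4 negative ones were Crabp2, a carrier of retinoic acid, at -0.47 ± 0.21, Bgn at -0.37, Mgp at -0.33 and the transcription factor Zic1 at -0.23. Bgn and Mgp followed the common profile, and the median of the other 11 genes was 1.03.

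Array scores of the meninges list overlapped between sizes at both days. In 8 mm defects they ran from -2.03 to 1.22 at day 3 and from -2.12 to 1.14 at day 5, with 4 arrays above 0 at each day. In 4 mm defects they ran from -2.09 to -0.11 at day 3 and from -1.74 to 1.19 at day 5, with 0 and 1 arrays above 0. The median of the list was 0.92 with quantile normalization, 1.05 with centring, 0.51 with values under 0.25 raised to 0.25, and 1.15 without the 9 low-level arrays. Leaving out single arrays gave 0.60 to 1.24, the lowest without replicate 21 of 4 mm day 3. The positive median was not particular to days 3 and 5. In the fit of all 14 groups it was 0.66 on day 1, 0.97 on day 7 and 1.93 on day 10. For days 14 and 21 it was 0.75 and 0.38. The part of erythroid and meningeal gene levels in the differences of other genes was not tested.

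**Figure D4:**
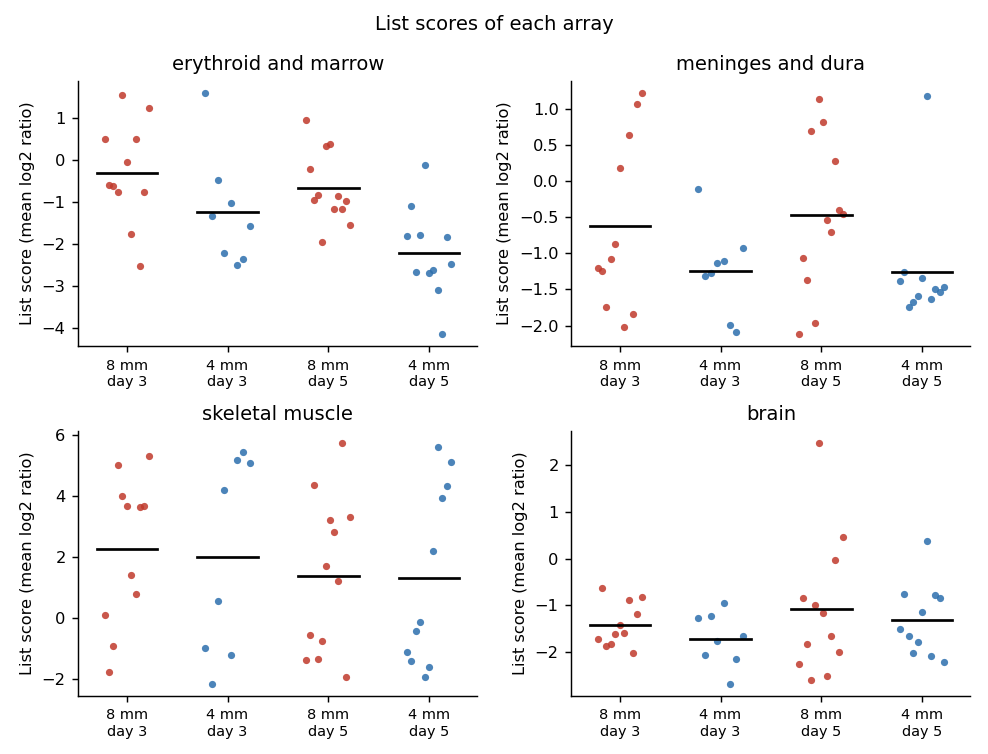
Scores of 4 lists on each array (mean log2 ratio of the measured genes) by group, 8 mm left of 4 mm at each day, with the group mean as a black bar. Erythroid scores of day 5 reach -0.13 at most in 4 mm defects, while muscle scores of each group span from below -1 to above 5.

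Fat cell genes gave some of the smallest p-values with a positive difference. Adiponectin (Adipoq), a hormone of fat cells, had log2 values from -1.91 to 1.89 (median 0.52) in 8 mm and from -2.88 to 0.49 (median -0.90) in 4 mm defects of day 3. At day 5 it ran from 0.35 to 1.70 (median 0.93) in 8 mm and from -3.84 to 0.95 (median -0.65) in 4 mm defects. All 12 arrays of 8 mm defects of day 5 were above the 4 mm mean, although the ranges overlapped. The difference was 1.57 ± 0.36 (2.96-fold, adjusted p = 0.169, 21 of 23 arrays) and its adjusted p was 0.0368 with quantile normalization.

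Resistin (Retn), another fat cell hormone in rodents, differed by 1.36 ± 0.32 (adjusted p = 0.201), and Cidec, a lipid droplet protein, by 0.99 ± 0.26 (0.262). The list as a whole was less uniform. Of 11 measured genes 3 had an unadjusted p under 0.05 in this direction (3.91% of all genes), and the median was 0.27. The fatty acid carrier Fabp4 differed by 0.40 (interval -0.10 to 0.89), while the master regulator Pparg differed by -0.04 and the lipase Lpl by 0.17.

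Krt8 and Krt18, the keratin pair of simple epithelia, stood out by size and were picked after their values were seen. Krt8 had medians of -0.31 in 8 mm and -2.34 in 4 mm defects at day 3. At day 5 they were 0.41 in 8 mm and -0.89 in 4 mm defects, and 22 of 23 arrays of 8 mm defects lay above the 4 mm mean. The difference was 1.96 ± 0.41 (3.90-fold, adjusted p = 0.0937). Replicate 14 of 4 mm day 5 was at the floor, and with values under 0.25 raised to 0.25 the difference was 1.39. For Krt18 it was 1.92 ± 0.48 (adjusted p = 0.262) with 23 of 23 arrays above that mean and 2 arrays at the floor. Keratins of the epidermis differed among themselves. Krt17 had 1.47 ± 0.93, Krt15 1.18 ± 0.86 and Krt10 0.61 ± 1.01, while Krt14 had -1.08 ± 0.52, Krt1 -0.74 ± 0.58 and Krt5 -0.22 ± 0.39. The epidermal list of 12 genes had 5 positive differences and a median of -0.20, which was 0.0081 without the 9 low-level arrays. In the positive direction 0 of 12 were under 0.05 (3.91% of all genes) and in the negative direction 2 of 12 (3.46%), Krt14 and the desmosome protein Dsp, which was at the floor on 16 arrays.

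The other genes with the smallest p in the positive direction were Klhl25, Hspb9 and Tekt2. Klhl25, an adaptor of a ubiquitin ligase, differed by 0.82 ± 0.18 (adjusted p = 0.126) with 23 of 23 arrays of 8 mm defects above the 4 mm mean. Hspb9, a small heat shock protein known from testis, differed by 0.66 ± 0.16 (0.201) and Tekt2, a tektin of cilia and flagella, by 1.51 ± 0.38 (0.262).

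The 2 smallest p-values of the whole comparison belonged to genes with lower values in 8 mm defects. Gprin1, a partner of G proteins in neurite outgrowth, ran from -0.67 to 0.65 (median -0.16) in 8 mm and from 0.23 to 1.29 (median 0.97) in 4 mm defects of day 3. At day 5 it ran from -1.55 to -0.13 (median -0.73) in 8 mm and from -0.82 to 0.28 (median -0.16) in 4 mm defects. The difference was -0.70 ± 0.13 (0.615-fold, adjusted p = 0.0641), with 22 of 23 arrays below the 4 mm mean. Its adjusted p was under 0.05 in 11 of 42 fits that each left out 1 array.

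Ano6, a membrane scramblase that also serves mineral deposition in mouse bone, had medians of 0.87 in 8 mm and 1.39 in 4 mm defects at day 3. Its medians at day 5 were 0.18 in 8 mm and 1.25 in 4 mm defects. The difference was -0.78 ± 0.15 (adjusted p = 0.0641) and passed in 6 of the 42 fits. Lrp1, a large receptor that clears proteases and lipoproteins, differed by -0.67 ± 0.14 (adjusted p = 0.0937), with 23 of 23 arrays below the 4 mm mean. In 4 mm defects of day 3 its values kept within 0.72 to 1.17, while those of 8 mm defects of day 3 ran from -1.03 to 0.89.

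Rpl37, Ptms and Khsrp followed at adjusted p between 0.0997 and 0.227: the ribosomal protein Rpl37 at -0.95 ± 0.20, parathymosin (Ptms), a small acidic nuclear protein, at -0.94 ± 0.23, and the RNA-binding protein Khsrp at -0.67 ± 0.16. Ptms, Rpl37, Lrp1, Ano6 and Gprin1 were also among the 7 genes with negative differences that passed with array weights.

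In the fibroblast and wound matrix list of granulation tissue all 19 differences were below 0, with a median of -0.23. With centring it was -0.11, while the median of all genes moved by the same amount, from -0.02 to 0.09. Without the 9 low-level arrays it was -0.04, against 0.09 for all genes. An unadjusted p under 0.05 was reached by 2 of 19 (3.46% of all genes in this direction) and 0 passed after adjustment. Tenascin C (Tnc), a matrix protein of wounds, differed by -0.59 ± 0.26 and decorin (Dcn), a collagen-binding proteoglycan, by -0.45 ± 0.21. The median difference was -0.42 at day 3 and 0.00050 at day 5. Among the proteases and their inhibitors the gelatinase Mmp2 differed by -0.43 ± 0.21 and the inhibitor Timp3 by 0.31 ± 0.14, while the list of 20 had a median of 0.05.

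Of 19 cytosolic ribosomal proteins 11 followed the common profile, so the median of that list, -0.35, is not read as a value of ribosomal genes. The other 8 had a median of -0.12 with 3 above 0, and Rps25 (-0.60 ± 0.23) was under 0.05 among them. Complement and acute phase genes had a median of -0.22, which was -0.05 without rats 18 and 20 of 8 mm day 3 and turned to 0.10 without the 9 low-level arrays. The complement components C3 (-0.72 ± 0.25) and C2 (-0.60 ± 0.26) were the 2 of 15 under 0.05, both in the negative direction (3.46% of all genes).

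Vessel genes split. The junction proteins Pecam1 and Cdh5 differed by -0.69 ± 0.28 and -0.26 ± 0.13, and the growth factor of vessels Vegfa by -0.65 ± 0.21 (adjusted p = 0.398). Vegfa had medians of 1.40 in 8 mm and 1.97 in 4 mm defects at day 3, and of 0.01 in 8 mm and 0.55 in 4 mm defects at day 5. The endothelial list as a whole had a median of 0.05, with 12 of 18 differences above 0 and 2 of 18 under 0.05 in the negative direction (3.46% of all genes). The VEGF receptors Kdr and Flt1 differed by -0.0025 and 0.09. Of the 20 hypoxia and glycolysis genes, Vegfa alone had an unadjusted p under 0.05 (3.46% of all genes in the negative direction). The median of that list was -0.02.

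Among growth factor genes of the FGF, PDGF and IGF families 3 of 22 had negative differences under 0.05 (3.46% of all genes). They were the receptor Fgfr3 (-1.18 ± 0.38), which was -0.46 at day 3 and -1.76 at day 5, and the binding proteins Igfbp6 (-0.73 ± 0.24) and Igfbp4 (-0.42 ± 0.13). Igf2 was the 1 of 22 in the positive direction (3.91%), and Igf1 differed by 0.0031. The ligand Igf2 and its binding proteins thus ran in different directions, Igfbp2 positive and Igfbp4 and Igfbp6 negative.

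**Figure D5:**
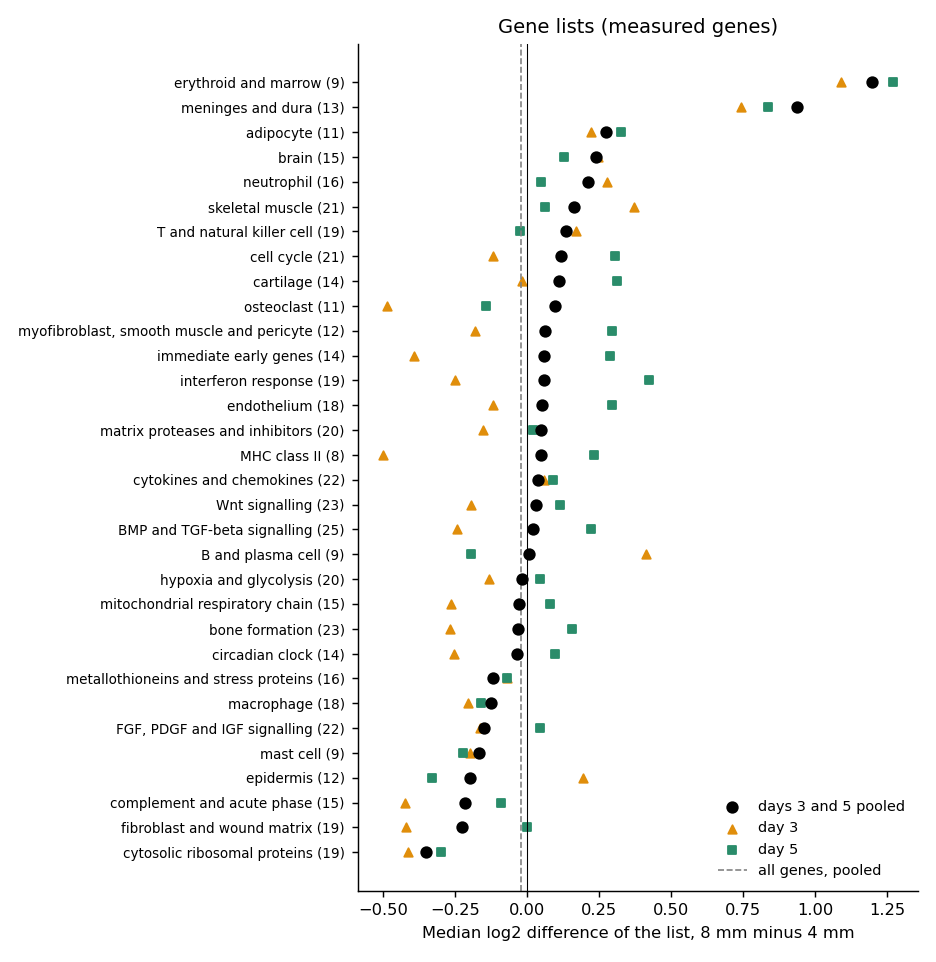
Median log2 difference, 8 minus 4 mm, of the measured genes of 32 lists (number in brackets), pooled over both days (circles), at day 3 (triangles) and at day 5 (squares). The dashed line is the pooled median of all genes, -0.02. The erythroid and meningeal lists lie farthest to the right at both days.

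Of 23 measured bone formation genes 0 had an unadjusted p under 0.05 over both days, the median was -0.03, and 11 were above 0. At day 3 alone 2 of 23 were under 0.05 in the positive direction (2.97% of all genes) and at day 5 alone 0 (3.68%). They were Phex, a peptidase of osteocytes, with 3.67 at day 3 and -0.08 at day 5, and Mepe, a matrix protein of osteocytes, with 1.54 at day 3 and 0.24 at day 5. The osteoblast transcription factor Runx2 differed by 0.02 ± 0.40 (interval -0.78 to 0.82), and osteopontin (Spp1) by -0.13. Col1a1, Col1a2 and Sparc followed the common profile. The largest pooled differences were those of Phex at 1.60 ± 1.02, and the growth factor Bmp2 at 1.02 ± 0.74, with the floor reached on 10 and 4 arrays. These intervals, -0.46 to 3.65 and -0.47 to 2.50, leave room for large differences in either gene.

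Of 11 osteoclast genes 1 had an unadjusted p under 0.05, in the negative direction (3.46% of all genes): osteoprotegerin (Tnfrsf11b), the decoy receptor that restrains osteoclasts, at -0.69 ± 0.27. Its ligand Tnfsf11 differed by 0.24, and cathepsin K (Ctsk), the collagenase of osteoclasts, by -0.48 ± 0.24 with an interval that ended at 0.0017. In the cartilage list 1 of 14 was under 0.05 in the positive direction (3.91%), the matrix protein Comp at 0.80 ± 0.32, and the median was 0.11.

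In the BMP and TGF-beta list 2 of 25 were under 0.05 in the positive direction (3.91% of all genes), Bmp6 at 1.80 ± 0.64 and the inhibitory Smad6 at 0.45 ± 0.19. In the negative direction it was 1 of 25, near the share of all genes (3.46%). Bmp6 was at the floor on 4 arrays, and its difference was 0.85 at day 3 and 2.56 at day 5. Among 23 Wnt genes the ligands Wnt10b (2.19 ± 0.98, at the floor on 27 arrays) and Wnt4 (0.70 ± 0.31) were positive and Wnt2 (-0.82 ± 0.23, adjusted p = 0.293) was negative. The medians of these 2 lists were 0.02 and 0.03.

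The macrophage list had 0 of 18 under 0.05 and a median of -0.13, with 3 genes (C1qb, Apoe and Lyz2) on the common profile. In the neutrophil list the surface protein Cd177 differed by 2.26 ± 0.91 with 6 arrays at the floor, while S100a9 differed by 0.61 ± 0.35 and S100a8 by -0.18 ± 0.65. Interleukin 1 alpha (Il1a) differed by 2.17 ± 0.86, alike at both days (2.17 and 2.17), with 8 arrays at the floor, and it was the 1 of 22 cytokines and chemokines under 0.05 (3.91% of all genes in this direction). Il1b and Il6 differed by 0.20 and -0.06.

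The antiviral genes Rsad2 and Ifit3 were the 2 of 19 in the interferon list under 0.05 in the positive direction (3.91% of all genes). Rsad2 had medians of -0.27 in 8 mm and -2.03 in 4 mm defects at day 3, and of -1.43 in 8 mm and -2.77 in 4 mm defects at day 5, a difference of 1.47 ± 0.46 (adjusted p = 0.37). It passed with array weights at 1.88 (adjusted p = 0.0372). Ifit3 differed by 1.04 ± 0.38 with 21 of 23 arrays of 8 mm defects above the 4 mm mean. The list's median was 0.06 over both days, -0.25 at day 3 and 0.42 at day 5. At day 5 alone 3 of 19 were under 0.05 (3.68% of all genes), the third being the chemokine Cxcl11 at 1.81. Mx1 had -0.90 at day 3 and 0.56 at day 5, and Isg15 had -0.75 at day 3 and 0.35 at day 5. Ifit1 (1.15), Usp18 (0.75) and Gbp5 (-0.97) had wide intervals that held 0.

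Of 19 T and natural killer cell genes 2 were under 0.05 in the positive direction (3.91% of all genes) and 1 in the negative (3.46%). Of 9 B and plasma cell genes 1 was under 0.05 in the positive direction and 0 in the negative. The protease Gzmb of killer cells (1.58 ± 0.63), the T cell receptor modulator Cd5 (0.63 ± 0.29) and the B cell receptor subunit Cd79b (0.56 ± 0.22) were positive, and Cd4 (-0.47 ± 0.22) was negative. The medians were 0.14 for 19 T and natural killer cell genes and 0.01 for 9 B and plasma cell genes. The MHC class II and mast cell lists had 0 of 8 and 0 of 9 under 0.05, with medians of 0.05 and -0.17.

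Cell cycle genes turned on which arrays were used. With all 42 arrays 1 of 21 was under 0.05 in the positive direction (3.91% of all genes). It was the mitotic kinase Aurkb at 0.32 ± 0.15, and the median of the list was 0.12. Without the 9 low-level arrays 9 of 21 were under 0.05 in the positive direction, against 7.33% of all genes, and the median was 0.31 against 0.09 for all genes. The proliferation marker Mki67 differed by 0.16 (interval -0.24 to 0.56) with all arrays.

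Tissue from outside the defect varied more between arrays than between sizes. Skeletal muscle scores ran from -1.76 to 5.33 in 8 mm and from -2.14 to 5.45 in 4 mm defects of day 3. They ran from -1.92 to 5.75 in 8 mm and from -1.93 to 5.60 in 4 mm defects of day 5. Scores above 4 were found on 3 and 4 arrays at day 3 and on 2 and 3 at day 5, in 8 and 4 mm defects each time. Brain scores were above 0 on 2 arrays of 8 mm defects and 1 of 4 mm defects, all at day 5, with the highest, 2.48, on replicate 17 of 8 mm day 5. With both scores as covariates 1 gene passed, Gprin1 at -0.73 (adjusted p = 0.0211), and the erythroid and meningeal medians were 1.15 and 0.71.

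The remaining lists had medians between -0.12 and 0.06. The metallothionein Mt2A differed by -0.61 ± 0.25 and the chaperone Hsph1 by 0.69 ± 0.22 in the stress list of 16. In the circadian list of 14 the repressor Nr1d1 and the clock output factor Dbp differed by -0.46 ± 0.20 and -0.46 ± 0.16. They were the 2 of 14 under 0.05 in the negative direction (3.46% of all genes). Of 15 respiratory chain genes 1, the muscle subunit Cox6a2, was under 0.05 at -0.73 ± 0.33 (3.46% of all genes in the negative direction). Of 14 immediate early genes and 12 genes of myofibroblasts, smooth muscle and pericytes, 0 were under 0.05.

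The difference between sizes was also compared between the 2 days. No gene passed for the interaction of size and day (0 of 15974, 0%), and 729 had an unadjusted p under 0.05 (4.56%). The median difference of all genes was -0.16 at day 3 and 0.08 at day 5. At day 5 quantile normalization let 68 genes pass (0.426%), 67 of them with negative differences, and at day 3 it let 0 pass.

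Whether the early difference was that of the later days was tested on all 93 arrays, as the mean of the size differences of days 3 and 5 minus the mean of those of days 7, 10, 14 and 21. In this fit the sizes differed in 0 genes (0%) on each of days 1, 3 and 5, in 59 (0.369%) on day 7 and in 42 (0.263%) on day 10. They differed in 261 (1.63%) on day 14 and in 383 (2.40%) on day 21. The days held different numbers of arrays, and the share of values at the floor was 10.0% to 10.9% on arrays of days 1 to 5 against 10.1% to 23.8% on those of days 7 to 21. This share also differed by size, and not in 1 direction. On day 14 it was 17.8% to 23.1% in 4 mm and 12.3% to 19.1% in 8 mm defects. On day 21 it was 14.1% to 22.6% in 4 mm and 18.9% to 23.8% in 8 mm defects. The median size difference of all genes was -0.40 on day 7. All 14 groups also shared 1 estimate of the spread per gene. At an unadjusted p under 0.05 this limma fit gave 485 genes on day 3 and 474 on day 5. The limma fit of the 42 arrays gave 919 and 989. The part of these in the counts and in the contrast was not tested. For the contrast of early and later days 9 genes passed (0.0563%), all 9 with a negative value. All 9 were above the floor on all 93 arrays and passed in each of 85 fits that left out 1 array of days 3 to 21.

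Dusp8, a phosphatase that switches off stress kinases, had the largest contrast, -2.42 ± 0.40 (adjusted p = 0.000456). Its size difference was -0.21 on day 1, -0.87 on day 3 and -1.04 on day 5. It was 1.30 on day 7, 0.29 on day 10 and 1.90 on day 14, and it passed on day 21 with 2.35 (adjusted p = 0.00857). The zinc finger protein Zxdc had -2.37 ± 0.44 (adjusted p = 0.00276), with size differences of -0.75 and -0.94 on days 3 and 5, and of 2.61 and 2.57 on days 14 and 21. Rtn4rl2, a receptor of the Nogo family, had -1.89 ± 0.39, Msl3l2 -1.87 ± 0.39, the pleckstrin domain protein Plekho2 -1.86 ± 0.35 and the NMDA receptor subunit Grin2d -1.80 ± 0.34.

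The other 3 of the 9 were Gprin1 at -1.79 ± 0.29 (adjusted p = 0.000355), tenascin R (Tnr), a matrix protein of brain, at -1.53 and junctophilin 1 (Jph1) of muscle at -1.12. Gprin1 differed between sizes by -0.70 over days 3 and 5, and by 1.45 at day 14 and 1.56 at day 21 (adjusted p = 0.038 and 0.0137). The erythroid, meningeal and fat cell genes described above did not pass this contrast: Ahsp had 0.91 (adjusted p = 0.743), Igfbp2 -0.30 (0.961) and Adipoq 2.18 ± 0.66 (0.252).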

How the data were processed

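Per the labels' protocols, total RNA of each defect was labelled with Cy3 and applied to a 1-colour Agilent rat array. What was deposited is a linear ratio, since 87.8% of 41090 probes had a median of 1 over 93 arrays, and no value lay under 0.01. How the authors scanned, corrected and scaled the arrays is not known here, so signal over background cannot be given, and the number of arrays limits the precision. The design had assumed log values; log2 of the deposited ratio was taken, with no pseudocount.

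Groups came from the titles. A single symbol belonged to 20932 probes, several to 0 and none to 20158. Of the named probes 17415 matched RefSeq (GRCr8), which renewed 2315 symbols. For the 3881 of 15974 genes with more than 1 probe, the probe of widest interquartile range stood for the gene. limma 3.58.1 in R 4.3.3 (lmFit, eBayes) fitted size with day as covariate on the 42 arrays, 4 group means for single days and the interaction, and 14 group means for the contrast with later days. Tests were two-sided, with Benjamini-Hochberg adjustment over all genes and a threshold of 0.05. The code was tested on simulated data. The spread between rats of a group, as the titles number them, underlies all p-values.

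The members and the 32 lists (568 entries, 522 measured) were chosen with earlier results of these data known, so no list is independent support. Named were the 6 genes of smallest p per direction above the floor, as 0 passed, list members with the largest differences or an unadjusted p under 0.05, and the 6 largest passing contrasts of early and later days; further list members are named for their role, with their values in view, and genes outside the lists are said to be picked after their values were seen. Alternatives were quantile normalization, centring, probe means, a raised floor, filters, array weights, a robust prior, muscle and brain scores, rat number blocks, a fit of 14 groups and left-out arrays. Chosen after seeing the data were leaving out the 9 low-level arrays, leaving out rats 18 and 20 of 8 mm day 3 with rescaling, leaving out single arrays in the contrast with later days, and list medians without genes of the common profile.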

Additional observations from a re-analysis of the deposited data

Results flagged for a closer look

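In the fit of all 93 arrays 9 genes passed for the contrast of the size differences of days 3 and 5 with those of days 7 to 21. The 6 with the largest contrasts were flagged. Their log2 values were -2.42 for Dusp8, -2.37 for Zxdc, -1.89 for Rtn4rl2, -1.87 for Msl3l2, -1.86 for Plekho2 and -1.80 for Grin2d, and each passed with an adjusted p between 0.000456 and 0.012.

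Of the 4 groups, only the 4 mm defects of day 3 were few enough for a test of outlying values. Single arrays of this group stood apart for 11 of 113 named genes. Chance gives about 1 in 20 only for independent genes with normal values. Floor values and related genes on the same array do not meet this, so the count is not read against it. Replicate 13 was high in the red cell genes Epb42 (2.75, with the nearest array at -0.10), Klf1 (2.08, nearest -0.82), Rhag (3.51, nearest -0.43) and Alox15 (4.35, nearest -0.12). The same array was at the floor of -6.64 in Matn1. Values of -6.64 also stood alone for Kif11 in replicate 17, Bub1b in replicate 14, Slc6a13 and Dsp in replicate 16, and Cldn11 in replicate 21. Vegfa was high in replicate 22, at 4.55 with the nearest array at 2.61.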

How the results depend on the processing

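The pooled count of 0 passing genes was 36 with quantile normalization, 27 with array weights, 5 with values under 0.25 raised to 0.25, 2 with centring (Fxyd2 and Nupr1), 2 among the genes above the floor (Ano6 and Gprin1), 1 with muscle and brain scores and 1 (Rpl37) in the fit of all 14 groups. It stayed 0 with probe means, a robust prior, genes at the floor on more than 21 arrays left out, rats 18 and 20 of 8 mm day 3 left out, and the 9 low-level arrays left out. Without rats 18 and 20 it was 19 with quantile normalization and 11 with centring. Leaving out single arrays gave 0 to 3, among Gprin1 (11 fits), Ano6 (6), Lrp1 (2) and Krt8 (1); 3 passed without replicate 12 or 18 of 8 mm day 3 or replicate 19 of 4 mm day 5. At day 5 the count of 0 became 68 with quantile normalization, 1 with centring and 1 with array weights; the interaction gave 1 with array weights. The contrast of early and later days (9) gave 60, 36, 14, 27 and 36 with quantile normalization, centring, probe means, the raised floor and genes above the floor, and 9 to 33 without single arrays, the highest without replicate 15 of 4 mm day 14. The cause of these shifts was not tested.

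Same-numbered rats of a day formed 17 pairs with correlations of their deviations from -0.10 to 0.33, of which 2 were over 0.1. Of the 17 samples 4 correlated best with their own number. Whether an equal number marks the same animal is not stated, and these correlations cannot settle it. The main fits did not pair samples. With the number as a fixed replicate block 0 genes passed in the pooled comparison, and 2 with a random replicate block (consensus correlation 0.0612). Of 2200 values of 113 genes under the alternatives, 2143 kept direction and side of the threshold, 52 came to pass and 5 changed sign: Lmod1 (-0.047, fixed block), Tek (-0.41) and Cd163 (0.0344) without the low-level arrays, Bub1b (0.10, array weights) and Kit (-0.0831, probe means). The 2200 values are not all pooled differences. They include the contrasts of early and later days of Dusp8, Zxdc, Rtn4rl2, Msl3l2, Plekho2 and Grin2d, refitted also without single arrays. The array level differed by -0.03 over all probes (permutation p = 0.728). Floor values cannot be ranked, and signal over background, which limits dim probes, cannot be given.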
